A study of Homo sapiens with 24 samples.

Results

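The CCT chaperonin, also called TRiC, was followed through the mRNAs of its subunits TCP1, CCT2, CCT3, CCT4, CCT5, CCT6A, CCT7 and CCT8. The members were chosen by gene symbol, with earlier results of these data known. Each of the 8 was found among the 25341 genes of the deposited tables, with the values of a gene's transcripts added up. All 8 averaged 1 TPM or more over the libraries, the filter that kept 13416 genes for testing, and 0 of them shared all their values with another gene. TPM, a transcript count scaled to a fixed library total, is corrected for transcript length and is a share of all RNA in a library. Levels of different genes are compared here as shares of the labelled RNA recovered, which need not match their abundance in the cell.

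The cells were U2OS, a human osteosarcoma cell line, in a custom Tet-off stable line in which withholding doxycycline switches on a mutant of Tob2, an adaptor protein that recruits mRNA deadenylases. The mutant, Tob2-S254D, carries aspartate in place of serine to mimic a phosphorylated residue. Induced cells had no doxycycline and expressed Tob2-S254D; uninduced cells were the same line with doxycycline in the medium. In both arms RNA was labelled with bromouridine (BrU), the label was chased for 0, 0.5, 1, 2, 4 or 6 h, and BrU-labelled RNA was immunoprecipitated from cytoplasmic RNA and sequenced, with 2 replicates in each of the 12 groups and 24 libraries in all. The labels do not say whether the replicates came from separate cultures, or whether the line is 1 clone, and p-values measure only the spread between these samples.

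CCT is a cytosolic chaperonin built of a pair of stacked rings. Each ring holds 1 copy of each of the 8 subunits in a fixed order, and ATP binding and hydrolysis close a built-in lid over the folding protein. TCP1 is the alpha subunit, and CCT2, CCT3, CCT4, CCT5, CCT6A, CCT7 and CCT8 are beta, gamma, delta, epsilon, zeta, eta and theta. Actin and tubulin are its best known clients, prefoldin delivers some of them to it, and phosducin-like proteins act as its co-chaperones.

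The induced gene itself was checked first. TOB2 ranged between 499 and 725 TPM in the 12 induced libraries and between 92.3 and 267 TPM in the 12 uninduced libraries, so the arms did not overlap. Libraries held between 12594 and 13757 genes at 1 TPM or more, and log2 values of replicates correlated with r between 0.970 and 0.986 across genes. The noncoding RNAs RMRP, MIR6723 and RPPH1 together took between 7.14 and 27.5% of an induced library and between 7.78 and 22.6% of an uninduced one. Their share was highest in induced replicate 2 at 0 h and 0.5 h, at 27.5% in each, against 21.2% and 19.5% in induced replicate 1. Among osteoblast markers, RUNX2, BGLAP and COL1A1 had a mean of at least 1 TPM, whereas SP7, ALPL, SPP1, COL1A2 and SPARC averaged less than 1 TPM and IBSP, a bone matrix gene, was at 0 in every library. Of 5 leukocyte markers 2 (CD14 and LYZ) averaged at least 1 TPM, and of 5 epithelial markers 0 did.

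All 8 CCT mRNAs rose along the chase in both arms. CCT8 gained most, reaching 4.76 times its 0 h level by 6 h in induced cells and 3.94 times in uninduced cells. CCT6A and TCP1 gained least, 1.82 and 1.87 times in induced cells and 1.53 and 1.61 times in uninduced cells. The other 5 lay between 2.13 and 3.20 times in induced cells and between 1.79 and 2.82 times in uninduced cells. A rise in TPM means a larger share of the labelled cytoplasmic RNA at later times. From such shares, slower loss of one mRNA and faster loss of the others cannot be told apart, nor can fewer cells and less RNA per cell.

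CCT8, the theta subunit, had 105, 121, 137, 185, 347 and 437 TPM at 0, 0.5, 1, 2, 4 and 6 h in induced replicate 1. Induced replicate 2 had 77.4, 88.2, 104, 161, 309 and 428 TPM at the same times. The uninduced libraries had 93.1, 99.7, 123, 162, 293 and 357 TPM in replicate 1 and 95.01, 103, 118, 157, 295 and 385 TPM in replicate 2. Up to 2 h the induced libraries lay on both sides of the uninduced ones or overlapped with them, and at 4 h and 6 h both induced libraries were above both uninduced ones.

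TCP1, the subunit from which the complex took its first name, had 102, 104, 100.1, 117, 156 and 178 TPM along the chase in induced replicate 1 and 79.0, 82.5, 85.7, 107, 112 and 159 TPM in induced replicate 2. Its uninduced values were 86.1, 84.3, 98.1, 108, 125 and 140.5 TPM in replicate 1 and 96.2, 91.7, 100.4, 104, 128 and 153 TPM in replicate 2. The induced replicates bracketed the uninduced ones at 0, 0.5 and 4 h, and both were above them at 6 h.

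**Figure D1:**
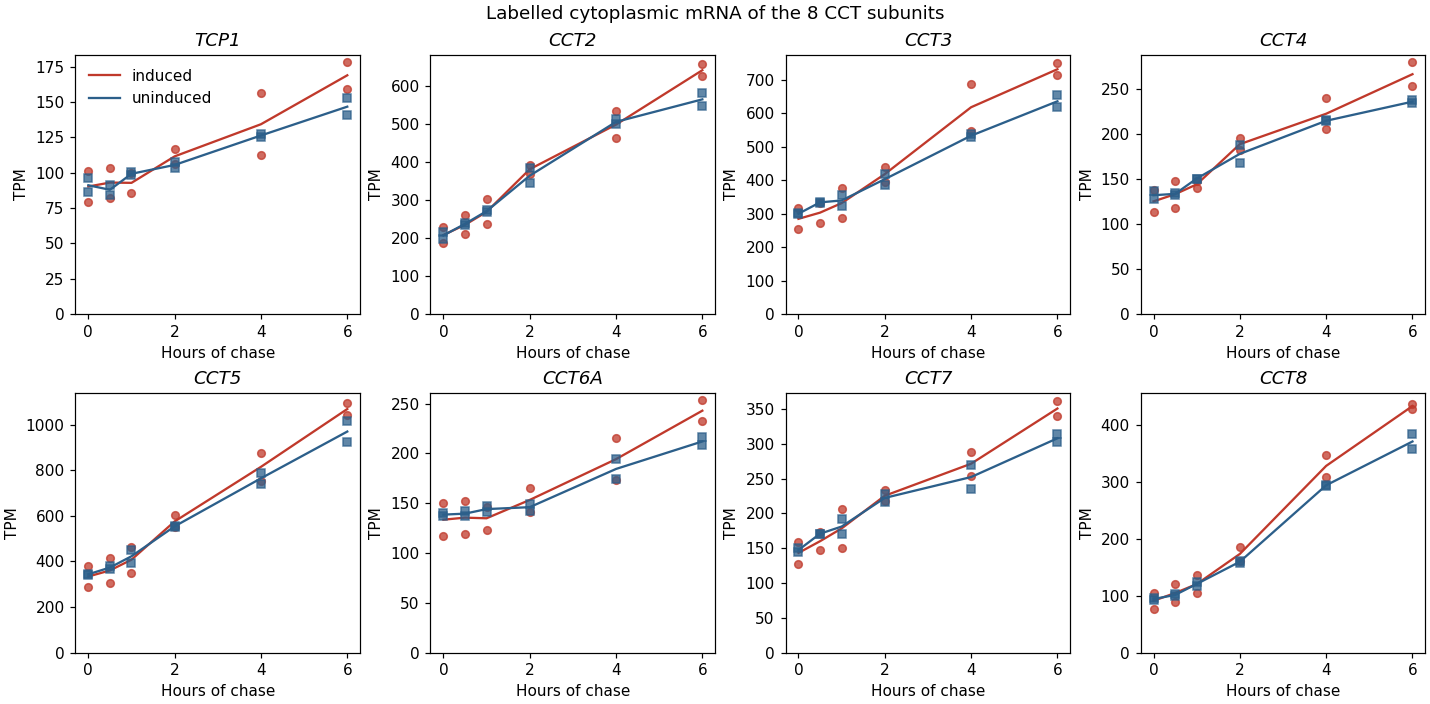
TPM of each CCT subunit mRNA (vertical axis, from 0, with its own scale in each panel) against hours of chase, with 1 point per library (circles induced, squares uninduced) and lines through the group means of n = 2. Every subunit rose in both arms, from a mean of 91.0 TPM in induced and 94.1 TPM in uninduced cells at 0 h to 433 and 371 TPM at 6 h for CCT8.

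The rate of the rise was estimated as the slope of log2(TPM + 1) on hours of chase. Slopes of both arms were fitted with limma in 1 model across all 13416 genes, with p-values adjusted by Benjamini-Hochberg over all of them. The model treated libraries of the same replicate at different times as independent, so its p-values may be too small. All 8 subunits had positive slopes at an adjusted p under 0.05 in induced cells, where 41.6% of all genes did and 29% had negative ones. All 8 also did in uninduced cells, where 42.8% of all genes rose and 22.3% fell. The members' median slope was 0.23 log2 units per hour in induced cells and 0.17 in uninduced cells, and the median over all genes was 0.028 and 0.039.

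That background depended on how libraries were scaled. Of the genes that passed, 58.9% rose in induced and 65.8% in uninduced cells, against 49.1% and 48.4% after median-of-ratios scaling, 44.7% and 51.8% with RMRP, MIR6723 and RPPH1 removed, and 47% and 55.5% with protein-coding transcripts only. The median slope of all genes moved by -0.032 per hour in induced and -0.044 in uninduced cells under median-of-ratios scaling. The 8 subunits still passed upward in both arms under each of these, with slopes of 0.12 to 0.36 in induced and 0.059 to 0.30 in uninduced cells after median-of-ratios scaling. With quantile normalization 8 passed in induced and 6 in uninduced cells, where TCP1 (0.041, limma, adjusted p = 0.072) and CCT6A (0.032, adjusted p = 0.14) no longer did.

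CCT8 had the steepest slope, 0.39 ± 0.024 log2 units per hour in induced cells (± SE, adjusted p = 1.39e-12) and 0.35 ± 0.024 in uninduced cells (adjusted p = 1.99e-11). Only 0.216% of all genes had a slope at least as high in induced cells, and 0.410% in uninduced cells. For the other members this share ran from 2.01% (CCT5) to 19.5% (CCT6A) in induced cells. In uninduced cells it ran from 2.97% to 28.3% for the same 2 genes. CCT5, CCT2 and CCT3 followed CCT8, at 0.29, 0.27 and 0.24 in induced cells and 0.26, 0.25 and 0.18 in uninduced cells. CCT7 had slopes of 0.21 in induced and 0.16 in uninduced cells, and CCT4 0.18 and 0.15. TCP1 had 0.15 in induced and 0.12 in uninduced cells. CCT6A had 0.15 in induced cells and the shallowest slope of the uninduced arm, 0.11 (adjusted p = 1.16e-05, the highest among the 8 in either arm). The order of the 8 slopes was the same in both arms, but neighbours below CCT8 had overlapping 95% intervals. The interval of CCT8 ran from 0.345 to 0.445 in induced cells, against 0.247 to 0.337 for CCT5, and in uninduced cells the upper end of CCT5 met the lower end of CCT8 at 0.30. In lines fitted to each of the 4 replicate series alone, CCT8 ranked first in every series, and TCP1 and CCT6A took the lowest ranks, 7 and 8, in every series.

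**Figure D2:**
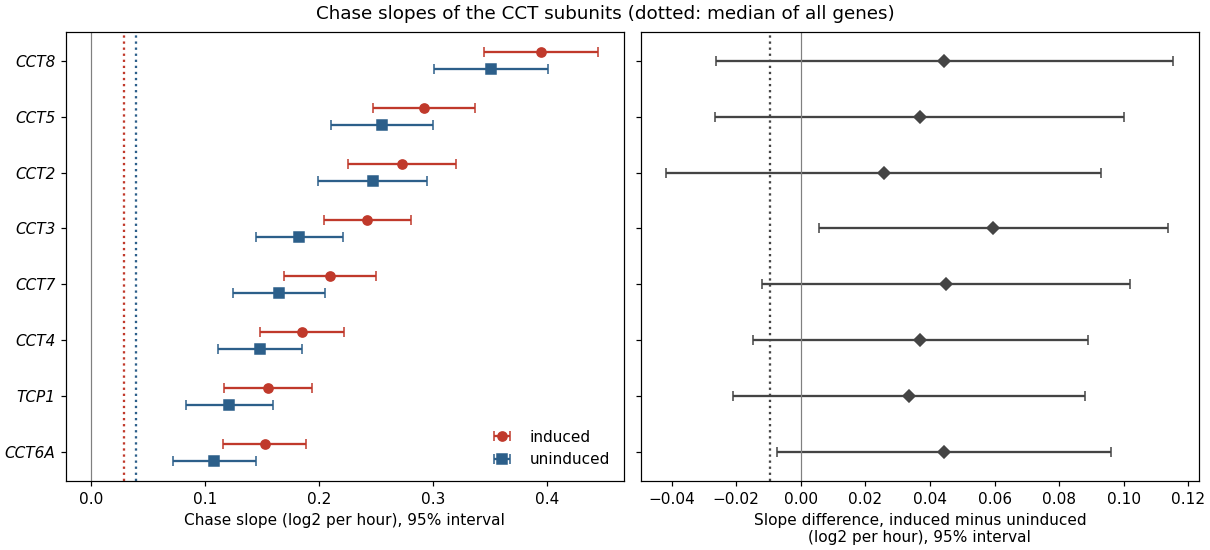
Left, chase slope of each subunit in log2(TPM + 1) per hour with its 95% interval (circles induced, squares uninduced). Right, induced minus uninduced slope with its 95% interval; dotted lines are medians over all 13416 genes. All slopes lie above the medians, and 7 of 8 intervals of the difference include 0.

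The chase was then divided at 1 h. Between 0 and 1 h the change ranged from 0.021 log2 units for CCT6A to 0.40 for CCT8 in induced cells, and from 0.056 for CCT6A to 0.39 for CCT2 in uninduced cells. By limma, 0 of 8 members passed in this interval in either arm, where 3.72% of all genes passed in induced and 3.55% in uninduced cells; CCT2, CCT7 and CCT8 had an unadjusted p under 0.05 in each arm, where 18.3% of all genes did in induced and 16.5% in uninduced cells. For CCT2 this change was 0.36 in induced and 0.39 in uninduced cells, above its slopes per hour over the whole chase. Without induced 0 h replicate 1, CCT8 passed in induced cells (0.62, adjusted p = 0.048), and without induced 1 h replicate 2, CCT2 (0.54, adjusted p = 0.044) and CCT7 (0.53, adjusted p = 0.048) did. Between 1 and 6 h all 8 passed upward in each arm, against 32.9% of all genes in induced and 33.3% in uninduced cells. That late change lay between 0.85 and 1.85 log2 units in induced cells and between 0.55 and 1.61 in uninduced cells. TCP1 and CCT6A had the smallest changes up to 1 h. TCP1 had 1.03 times its 0 h level at 1 h in induced and 1.09 times in uninduced cells, and then 1.82 and 1.48 times its 1 h level at 6 h. CCT6A had 1.01 times its 0 h level at 1 h in induced and 1.04 times in uninduced cells, and then 1.80 and 1.47 times its 1 h level at 6 h.

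**Figure D3:**
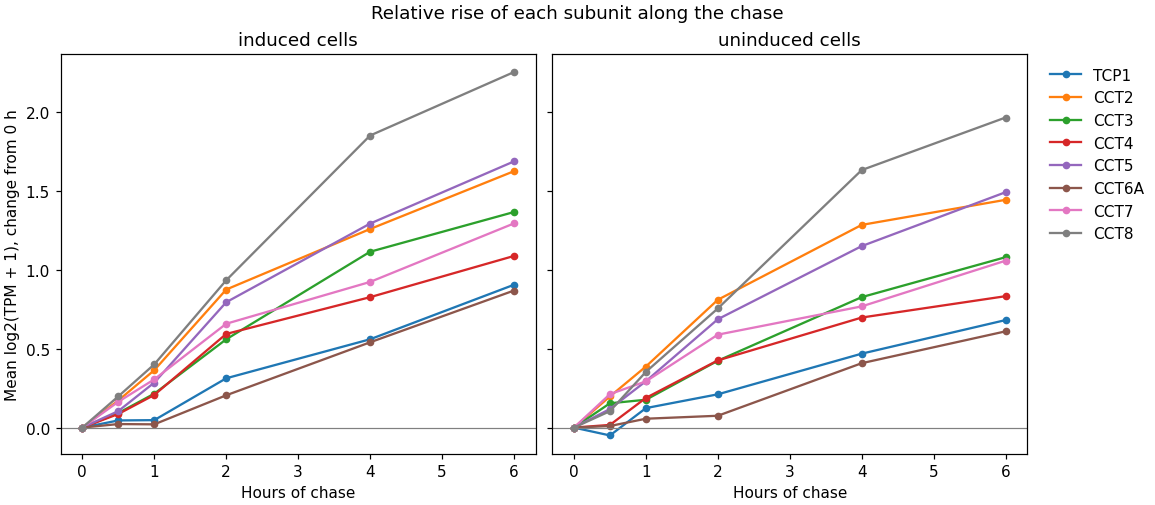
Mean log2(TPM + 1) of each subunit minus its own mean at 0 h (vertical axis) against hours of chase, in induced cells (left) and uninduced cells (right), n = 2 libraries per point. CCT8 separates from the other subunits after 2 h in both arms, and TCP1 and CCT6A stay lowest.

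The levels of the 8 mRNAs spread apart along the chase. The highest of the 8 stood at 3.73 ± 0.0134 times the lowest at 0 h in induced cells and 3.81 ± 0.301 times in uninduced cells (± SD, n = 2 each). At 6 h the ratio was 6.35 ± 0.740 in induced and 6.61 ± 0.0321 in uninduced cells. The summed TPM of the 8 was 1411 ± 235 in induced and 1455 ± 18.2 in uninduced cells at 0 h, and 3905 ± 76.0 and 3445 ± 146 at 6 h.

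At 0 h the order of levels was CCT5, CCT3, CCT2, CCT7, CCT6A, CCT4, CCT8 and TCP1 in both arms. In uninduced cells only CCT8 and TCP1, at the low end, overlapped between neighbours. In induced cells CCT5 overlapped with CCT3, CCT7 with CCT6A, CCT6A with CCT4, and CCT8 with TCP1. By 6 h the order was CCT5, CCT3, CCT2, CCT8, CCT7, CCT4, CCT6A and TCP1 in both arms, and no neighbours overlapped in either arm. CCT8 had thus moved from rank 7 to rank 4. CCT5, the highest in TPM, averaged 334 ± 62.6 TPM in induced and 344 ± 3.32 TPM in uninduced cells at 0 h. At 6 h it averaged 1069 ± 40.2 and 970 ± 63.1 TPM (± SD, n = 2 each). CCT8 made up 6.42% of the summed TPM in induced and 6.47% in uninduced cells at 0 h, and 11.1% and 10.8% at 6 h. CCT6A went the other way, with 9.46% in induced and 9.52% in uninduced cells at 0 h and 6.22% and 6.16% at 6 h.

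The comparison between arms asked whether induced Tob2-S254D changed the course of these mRNAs. The slope was higher in induced than in uninduced cells for all 8 subunits, by 0.026 (CCT2) to 0.060 (CCT3) log2 units per hour, with a median of 0.041. By limma, 0 of 8 differences had an adjusted p under 0.05, where 0.343% of all genes did. The smallest adjusted p was 0.34, for CCT3, whose difference of 0.060 ± 0.026 (± SE) had an unadjusted p of 0.032, the only one of the 8 under 0.05, where 12.5% of all genes were. The 95% intervals of the 8 differences reached from -0.042 to 0.12. Of all genes, 43.1% had a positive difference, and the median was -0.0094. The 8 members share their libraries, so their common direction is not 8 separate observations. Among the genes that passed, 1 had a positive and 45 a negative difference. In replicate 1 alone the 8 differences ranged from 0.0053 to 0.053, and in replicate 2 alone from 0.040 to 0.073.

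Induced replicate 1 was above induced replicate 2 for 8 of 8 members at each time up to 4 h, and for 7 of 8 at 6 h. The ratio of replicate 1 to replicate 2 was 1.22 to 1.35 at 0 h, 1.17 to 1.37 at 0.5 h, 1.05 to 1.38 at 1 h, 1.07 to 1.17 at 2 h, 1.12 to 1.39 at 4 h and 0.948 to 1.12 at 6 h. In uninduced cells replicate 1 lay between 0.876 and 1.15 times replicate 2 over all times. The induced replicate 2 libraries at 0 h and 0.5 h were those with the highest share of RMRP, MIR6723 and RPPH1. With these 3 RNAs removed from every library, the slope differences of the 8 members ranged from 0.016 to 0.050 with a median of 0.031, and 0 of 8 passed by limma. When both libraries were left out instead, a choice made after the values were seen, the slope differences ranged from 7.4e-05 to 0.040 with a median of 0.016.

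At the ends of the chase the arms compared as follows. At 0 h the difference, induced minus uninduced, lay between -0.084 and 0.0022 log2 units, and 0 of 8 members were above the median of all genes, 0.049. By limma 0 of 8 passed there, where 0.0298% of all genes did. At 6 h the difference lay between 0.14 (CCT5) and 0.22 (CCT8), and the median of all genes was 0.024. Again 0 of 8 passed by limma, with adjusted p between 0.42 and 0.64, where 9.14% of all genes passed. Of all genes, 148 passed as higher and 1078 as lower in induced cells at 6 h. Among the 8, the widest 95% interval at 6 h was that of CCT5, from -0.18 to 0.47, and the highest upper end was 0.55, for CCT8. Leaving out 1 library at a time kept all 8 differences positive, and moved that of CCT5 to between 0.075 (without uninduced 6 h replicate 1) and 0.21. Without induced 6 h replicate 1, that of TCP1 was 0.12 and that of CCT4 0.10, against upper ends of 0.28 and 0.24. Both induced libraries were above both uninduced ones for 8 of 8 members at 6 h, which was also so for 31.3% of all genes. At 4 h this held for 2 of 8, against 25.6% of all genes, and at 0, 0.5, 1 and 2 h for 0 of 8, against 16.2%, 21.6%, 23.3% and 30.7%. The members share their libraries, so these are not separate observations.

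As ratios of means, the 8 subunits stood at 0.948 to 1.01 times the uninduced level at 0 h, 0.908 to 1.06 times at 0.5 h, 0.936 to 0.998 times at 1 h, 1.01 to 1.09 times at 2 h, 0.986 to 1.16 times at 4 h and 1.10 to 1.17 times at 6 h. For CCT3, the gamma subunit, the 6 h values were 750.1 and 714 TPM in induced cells and 618 and 654 TPM in uninduced cells. CCT4, the delta subunit, had 279.9 and 254 TPM at 6 h in induced cells, against 235 and 238 TPM in uninduced cells. CCT7, the eta subunit, had 361 and 341 TPM in induced cells and 302 and 314 TPM in uninduced cells at that time. In each of these 3 the lower induced library was above the higher uninduced one. CCT5, the epsilon subunit, had 1040.2 and 1097 TPM in induced and 925 and 1014 TPM in uninduced cells at 6 h, the smallest gap of the 8 in log2 units. CCT2, the beta subunit, had 658 and 625 TPM in induced and 548 and 582 TPM in uninduced cells. CCT6A, the zeta subunit, had 254 and 232 TPM in induced cells, against 216 and 208 TPM in uninduced cells.

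Averaged over the 6 times, the level was higher in induced cells by 0.016 (CCT5) to 0.074 (CCT8) log2 units. Of all genes, 61.8% had a positive difference, with a median of 0.051, and 1 of 8 members (CCT8) lay above that median. By limma 0 of 8 passed, where 25.7% of all genes did. With induced replicate 2 at 0 h and 0.5 h left out, CCT8 passed (0.15, adjusted p = 0.033). The change over the first hour differed by -0.076 to 0.047, with 0 of 8 and 0 of all 13416 genes passing, and with 0 of 8 members and 152 of all genes at an unadjusted p under 0.05. The change between 1 and 6 h was larger in induced cells for all 8, by 0.20 to 0.30 log2 units. It was larger for 41.1% of all genes, and the median difference over all genes was -0.067. The 8 share their libraries and are not separate observations. In this late change 0 of 8 passed, where 1.31% of all genes did. Among the genes that passed there, 1 had a positive and 175 a negative difference. In the levels at 0 h, at 6 h and averaged, and in this late change, 0 of 8 differences between arms had an unadjusted p under 0.05, where 6.57%, 21.7%, 38.5% and 11% of all genes did.

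The deposited tables list several RefSeq transcripts for every subunit but CCT5, and 22 of the 23 listed had a mean of at least 1 TPM. Reads are divided between transcripts of 1 gene by estimation, so these values are less certain than the gene sums. The main transcript of each subunit rose in both arms, where 27.5% of the 21749 transcripts tested rose in induced and 26.2% in uninduced cells. For CCT8 and CCT2 the transcripts parted. CCT8 NM_006585 had 72.9 and 51.3 TPM at 0 h and 418 and 414 TPM at 6 h in the induced libraries, against 61.5 and 74.9 TPM at 0 h and 345 and 371 TPM at 6 h in the uninduced libraries. CCT8 NM_001282907 had 31.6 and 18.6 TPM at 0 h and 8.21 and 11.7 TPM at 6 h in the induced libraries, against 29.2 and 14.2 TPM at 0 h and 9.29 and 5.77 TPM at 6 h in the uninduced libraries. All 6 h values of NM_006585 were above its 0 h values, and all 6 h values of NM_001282907 were below its own.

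By limma over all transcripts, NM_006585 rose by 0.51 log2 units per hour in induced and 0.44 in uninduced cells (adjusted p = 3.31e-11 and 5.18e-10). NM_001282907 fell by 0.24 per hour in both arms (adjusted p = 9.85e-05 in induced and 0.000131 in uninduced cells), where 19.1% of transcripts fell in induced and 14.1% in uninduced cells. NM_006585 made up 68.0% of CCT8 TPM in induced and 72.5% in uninduced cells at 0 h, and 96.0% and 96.7% at 6 h. CCT2 NM_006431 rose by 0.30 in induced and 0.28 in uninduced cells, and CCT2 NM_001198842 fell by 0.18 (adjusted p = 0.00597) and 0.16 (adjusted p = 0.0154). CCT3 NM_001008800 was at 1.15 ± 1.63 TPM in induced cells and listed at 0 in uninduced cells at 0 h, and reached 24.4 ± 3.77 and 16.0 ± 1.39 TPM at 6 h (± SD, n = 2 each).

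**Figure D4:**
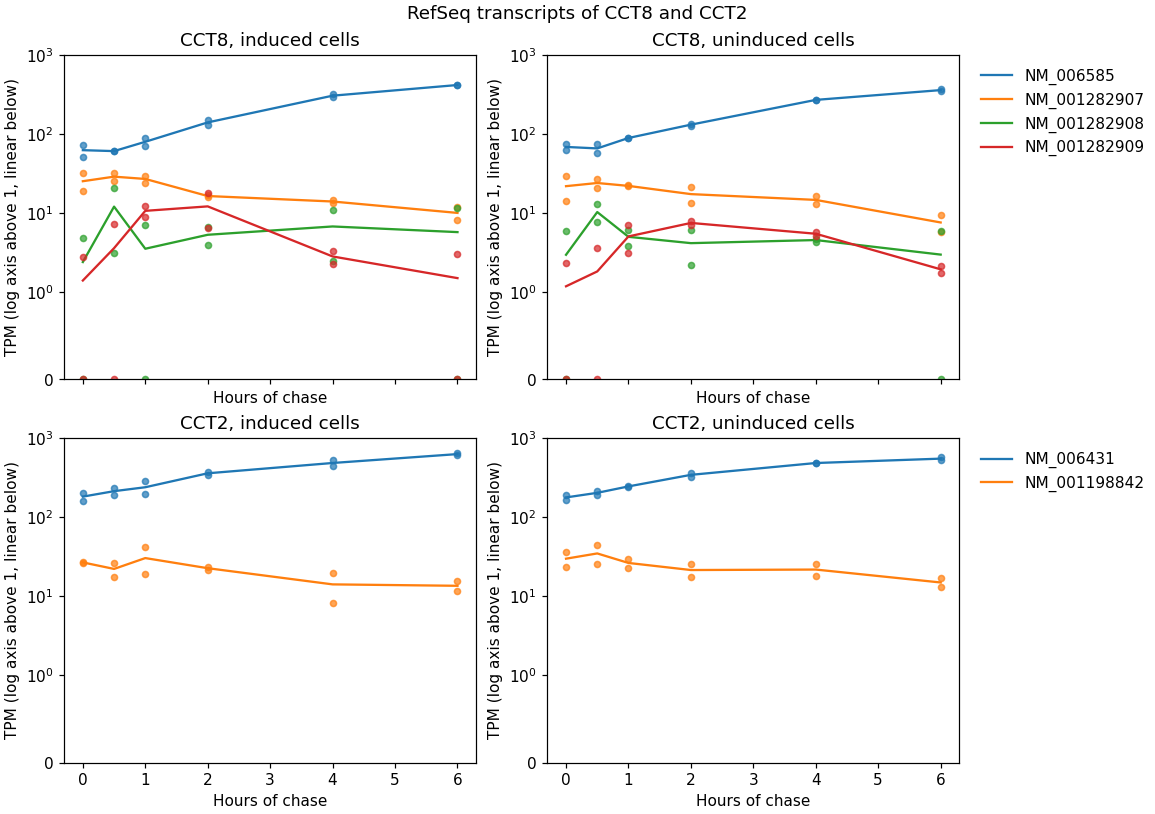
TPM of the listed RefSeq transcripts of CCT8 (top) and CCT2 (bottom) against hours of chase in induced (left) and uninduced cells (right); points are libraries, lines group means of n = 2, and the vertical axis is logarithmic above 1 TPM and linear below. NM_006585 and NM_006431 rise while NM_001282907 and NM_001198842 fall in both arms.

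The arms were compared in the share of each subunit's TPM held by its main transcript, for the 7 subunits with several transcripts. Averaged over the chase the share was 77.2% in induced and 80.1% in uninduced cells for CCT8, 94.2% and 97.1% for CCT4, and 86.1% and 88.3% for CCT7. The differences lay between -2.98 and 1.09 percentage points over the 7. A two-sided exact permutation test of the arm within each time (46656 arrangements) gave unadjusted p between 0.143 and 0.776, and 0 of 7 passed after adjustment.

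CCT6A has the pseudogenes CCT6P1 and CCT6P3, near copies between which reads could be divided, so its values are uncertain. CCT6P1 had slopes of -0.067 in induced and -0.077 in uninduced cells, and CCT6P3 -0.033 and -0.0014, and by limma none of these 4 slopes passed (the smallest adjusted p was 0.11). With both added to CCT6A, a choice made after the values were seen, its slope was 0.12 in induced and 0.084 in uninduced cells and still passed in each. TCP1 carries the small nucleolar RNAs SNORA20 and SNORA29 in its introns, and CCT6A carries SNORA15 and SNORA22. SNORA29 fell in both arms, by 0.49 log2 units per hour in induced and 0.60 in uninduced cells (limma, adjusted p = 0.0055 and 0.0013), while its host TCP1 rose. Its levels were low, at most 20.2 TPM in any library. At 4 h and 6 h it was at 0 in both uninduced replicates and in induced replicate 2. SNORA22 had a slope of -0.34 per hour in uninduced cells (limma, adjusted p = 0.0186) and -0.11 in induced cells (adjusted p = 0.42). Its uninduced course was not a steady fall. At 0, 2 and 6 h it had 8.26, 27.8 and 3.85 TPM in uninduced replicate 1. Uninduced replicate 2 had 7.80, 17.6 and 0 TPM at these times. SNORA20 and SNORA15 did not pass in either arm.

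The bases before the transcription start are shown for 3 subunits, TCP1, CCT2 and CCT8. TCP1 had a shallow rise, CCT2 a steep one and CCT8 the steepest. Whether these bases bear on the rise was not tested. RefSeq windows (GRCh38.p14) were found for 7 of the 8 members, and the 250 bases before the start given there were searched on both strands. For CCT5 these bases lie wholly inside its gene record in the RefSeq gene table, and for CCT4 15 of them do. Capitals mark each match of the heat shock element core GAANNTTC or TTCNNGAA, of the CCAAT box, or of ACTTCCG, a sequence of the ETS family type; a CCAAT on the other strand reads ATTGG. The TCP1 window is chr6:159789603-159789852 (minus strand), that of CCT2 is chr12:69585209-69585458 (plus strand), and that of CCT8 is chr21:29073649-29073898 (minus strand), each written 5′ to 3′; no matches overlapped in them.
TCP1: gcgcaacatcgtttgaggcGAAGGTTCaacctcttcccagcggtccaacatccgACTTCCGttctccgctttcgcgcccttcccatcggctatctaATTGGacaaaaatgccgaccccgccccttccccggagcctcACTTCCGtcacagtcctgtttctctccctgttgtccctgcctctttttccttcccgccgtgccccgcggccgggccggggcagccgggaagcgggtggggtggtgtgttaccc
CCT2: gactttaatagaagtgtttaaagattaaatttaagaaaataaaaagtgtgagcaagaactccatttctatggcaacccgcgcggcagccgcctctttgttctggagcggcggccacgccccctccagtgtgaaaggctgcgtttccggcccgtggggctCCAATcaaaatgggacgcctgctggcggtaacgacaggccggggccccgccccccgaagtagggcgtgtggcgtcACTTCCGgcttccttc
CCT8: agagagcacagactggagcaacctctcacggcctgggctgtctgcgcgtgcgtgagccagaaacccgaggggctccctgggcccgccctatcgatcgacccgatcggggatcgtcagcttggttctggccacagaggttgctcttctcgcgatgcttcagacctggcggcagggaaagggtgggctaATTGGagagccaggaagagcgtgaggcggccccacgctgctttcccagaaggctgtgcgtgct

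CCAAT was present in 4 of the 7 windows (CCT3, TCP1, CCT2 and CCT8), against 32% of 35116 windows of all genes. ACTTCCG was in 3 of 7 (CCT7, TCP1 and CCT2), against 5.69%, and TCP1 holds it at 196 and 113 bases before the start. GAANNTTC was in 1 of 7 (TCP1, at 231 bases before the start), against 5.78%, and TTCNNGAA in 0 of 7, against 6.62%. The CCT5 window held none of them, so without it the counts were 4, 3, 1 and 0 of 6. The 4 subunits with CCAAT include both the steepest slope, CCT8, and one of the shallowest, TCP1. These are matches of letters and were not tested as sites.

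Genes that work with CCT were taken from lists chosen for their known roles, with earlier results of these data known. Counts within the lists are therefore descriptions and not tests. As a background for each list, 41.6% of all genes rose and 29% fell in induced cells. In uninduced cells 42.8% rose and 22.3% fell. Of the 6 prefoldin subunits, which form the complex that hands unfolded actin and tubulin to CCT, 6 rose in induced and 5 in uninduced cells, with median slopes of 0.11 log2 units per hour in each arm. PFDN5 rose by 0.23 per hour in induced and 0.17 in uninduced cells, VBP1 by 0.20 in each, PFDN2 by 0.13 and 0.092, and PFDN1 by 0.074 and 0.10. The prefoldin subunit that did not pass in uninduced cells was PFDN6 (0.045, limma, adjusted p = 0.077).

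Of the 4 phosducin-like and thioredoxin-like co-chaperones, 3 were tested, and 2 rose in induced and 3 in uninduced cells. PDCL3 had slopes of 0.15 in induced and 0.17 in uninduced cells, TXNDC9 0.052 and 0.095, and PDCL 0.0011 and 0.098, of which the first did not pass. PDCL2 was listed at 0 at 0 h and 6 h in both arms. Among 7 genes of CCT paralogs, other chaperonins with their lid, and chaperonin-like proteins, 5 were tested, and 2 rose and 1 fell in each arm. Of all genes, 41.6% rose in induced and 42.8% in uninduced cells. HSPD1 and HSPE1, which form the mitochondrial chaperonin and its lid, rose by 0.26 and 0.13 per hour in induced and by 0.22 and 0.073 in uninduced cells. BBS12, a chaperonin-like protein needed to assemble the BBSome of cilia, fell by 0.31 in induced and 0.27 in uninduced cells, and MKKS, another of that group, had slopes of 0.037 and 0.054 that did not pass. CCT6B, the testis paralog of CCT6A, was below the filter, with at most 0.21 TPM on average at 0 h or 6 h in either arm, as was CCT8L2.

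Of 24 proteins that CCT folds or binds, 23 were tested, and TUBB2B was listed at 0. Of the 23, 19 rose and 0 fell in each arm, where 41.6% of all genes rose in induced and 42.8% in uninduced cells. The median slope of the 23 was 0.11 in induced and 0.10 in uninduced cells, beside 0.23 and 0.17 for the CCT subunits. ACTB, cytoplasmic beta-actin, had slopes of 0.13 in induced and 0.090 in uninduced cells. TUBA1B and TUBB, the main alpha- and beta-tubulin, had 0.17 and 0.14 in induced and 0.12 and 0.10 in uninduced cells. GNB1, a G protein beta subunit whose folding needs CCT and PDCL, had 0.18 in induced and 0.13 in uninduced cells. Of the 6 tubulin cofactors, which take tubulin on from CCT to the dimer, 3 rose and 1 fell in each arm. TBCB rose by 0.27 in induced and 0.22 in uninduced cells, TBCD by 0.18 and 0.16, and TBCA by 0.12 and 0.066.

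TBCC, the cofactor that triggers GTP hydrolysis in the last step of tubulin assembly, was the cofactor that fell. TBCE, with slopes of -0.056 in induced and -0.048 in uninduced cells, and ARL2, with 0.042 and -0.037, did not pass in either arm. TBCC had 185 ± 3.10 TPM in induced and 199 ± 9.09 TPM in uninduced cells at 0 h, and 5.52 ± 0.311 and 8.26 ± 1.47 TPM at 6 h (± SD, n = 2 each). The slope of TBCC was -0.86 in induced and -0.79 in uninduced cells (limma, adjusted p = 2.11e-15 and 1.82e-14). HSF1, the heat shock transcription factor, had slopes of 0.22 in induced and 0.14 in uninduced cells. In the slope difference between arms, 0 of the genes of these lists passed.

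**Figure D5:**
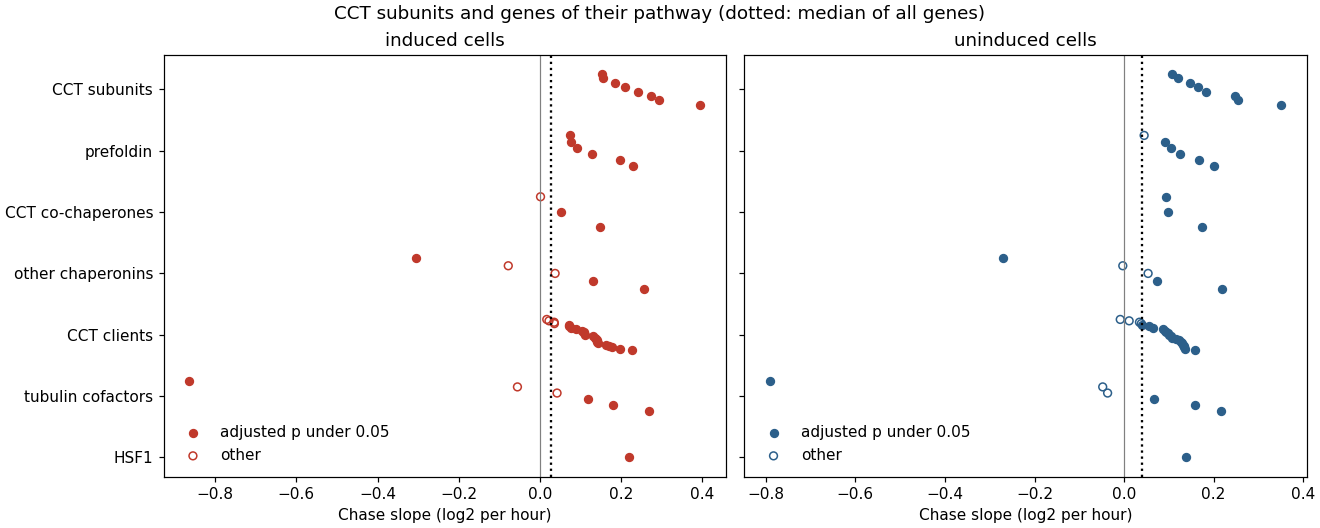
Chase slopes in log2(TPM + 1) per hour of the CCT subunits and of the lists of related genes, in induced (left) and uninduced cells (right), with 1 point per gene, filled where the adjusted p was under 0.05; dotted lines are medians over all genes. All CCT points lie between 0.15 and 0.39 in induced and between 0.11 and 0.35 in uninduced cells, and TBCC lies at -0.86 and -0.79.

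The genes whose 12 group means were most like the mean course of the 8 subunits were ATP5B, ILF2, RHEB, MRPL20 and PRDX3, each with Pearson's r of 0.998 over the 12 group means of log2(TPM + 1). A steady rise was common in these libraries: 30.2% of the 10377 other genes averaging 5 TPM or more had r above 0.9. The members themselves ranged from r = 0.969 for CCT6A to r = 0.999 for CCT5, but each is part of the mean it was compared with, which raises its r. The 5 genes were picked for their likeness to this mean. Their slopes were 0.20 to 0.32 in induced and 0.16 to 0.28 in uninduced cells, within the range of the subunits.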

How the data were processed

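BrU-labelled cytoplasmic RNA was measured in 24 libraries, 12 per arm. The authors deposited TPM per RefSeq transcript. Per the submitters' processing notes, Trim Galore, Bowtie2, RSEM 1.3.0 and the build hg19 were used; their settings are not given in the sources used here. TPM keeps no read total, so depth is unknown and no counting interval is given. Of 48009 transcripts, 3 had no gene symbol and were left out.

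TPM were summed per gene, and log2(TPM + 1) of genes averaging 1 TPM or more was tested with limma 3.58.1 (R 4.3.3), with a variance trend. A model with a line on hours per arm gave slopes (20 residual degrees of freedom), and one with 12 group means gave level differences (12). Both treated all libraries as independent. Yet for most members the induced replicates kept the same order at all times. If libraries of the same replicate are correlated along the chase, these degrees of freedom are too many and the slope p-values too small. Lines fitted to each replicate series alone rose for every member. Folds on this scale understate changes of low genes. P-values were adjusted by Benjamini-Hochberg over all genes at a threshold of 0.05. On simulated data with 200 of 13416 slope differences set to 0.2, 73.5% were recovered, with 9 false calls. The noise was drawn separately for each gene. The members' slope differences, 0.026 to 0.060, were smaller than 0.2, and recovery at such sizes was not simulated. The members and the gene lists were chosen with earlier results of these data known. All members are named; of each list, genes past the threshold in the slope difference and up to 4 with the smallest p in either slope are. One marker of the cell line check is not reported here. Alternatives covered scaling, pseudocount, filters, chase length, transcripts, the replicate number and left-out libraries.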

Additional observations from a re-analysis of the deposited data

How the results depend on the processing

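Over 41 alternatives all 8 subunits kept their rising call in induced cells, and in uninduced cells too except for TCP1 and CCT6A under quantile normalization, where TCP1 also lost its uninduced call between 1 and 6 h (adjusted p = 0.079). In the slope difference 0 of 8 passed in every alternative, and each subunit's difference stayed positive. Without induced 0 h and 0.5 h replicate 2, a choice made after the values were seen, 1 member (CCT8) passed in the mean level difference and 1 (CCT2) in the uninduced early change. Leaving out 1 library at a time gave between 0 and 2 members passing in the induced early change, and TCP1 differences in main transcript share between -0.487 and 1.56 percentage points; this difference turned negative, to -0.0223, -0.283 and -0.487, without induced 6 h replicate 1, uninduced 0 h replicate 1 and uninduced 2 h replicate 1, and the cause was not tested. Over all genes 46 passed in the slope difference, against 0 to 400 over the alternatives.

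Libraries with the same replicate number had deviations from their group means that correlated by 0.0203 to 0.156 over the 6 times; the numbers were not taken as pairs, though all 6 were positive. With the replicate number as a block, 8 and 8 members rose in induced and uninduced cells, 0 of 8 passed in the slope difference (smallest adjusted p 0.198) and 99 of all genes did. The model of group means could not be fitted without a whole replicate series. With 2 libraries per group, arm differences at 6 h of up to 0.55 log2 units lay within the widest intervals.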
